A study of Sus scrofa with 17 samples.

Results

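Longissimus muscle of piglets fed the green seaweed Ulva lactuca was compared with that of control piglets across all genes with enough reads to test, and by functional groups of genes. The comparison took every control and every UL sample of the series, 12 of its 17 samples, and the 5 ULU samples entered the filter on low counts, the scaling and the shared estimate of the spread between piglets. The piglets were male Large White × Duroc crosses, aged 28 days at the start, and had 5 days of adaptation before 2 weeks on the diets, pair-fed and alone in metabolic cages. The 6 control piglets ate a diet of wheat, maize and soybean meal, the 6 UL piglets ate that diet with 7% of it replaced by Ulva lactuca, and the ULU piglets also received 0.01% ulvan lyase, which acts on ulvan, a polysaccharide of the seaweed's cell walls. Each piglet gave 1 library, in which reads were counted by gene without regard to strand, so that genes overlapping on opposite strands cannot be separated.

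Counted reads per library ranged from 16335304 to 23433672 in control and from 16470286 to 20896796 in UL. Levels are given in CPM, counts scaled by library size and TMM factor, and 3 reads corresponded to between 0.133 and 0.195 CPM, a limit that covers counting error only. Of 31908 genes, 14203 passed a filter on low counts and were tested with edgeR's quasi-likelihood test. Differentially expressed genes (DEGs) were called where the p-value, adjusted by the method of Benjamini and Hochberg, was below 0.05 and the absolute log2(fold change), UL vs control, was 1 or more. Fold changes are followed by their standard error (SE) and adjusted p-value from edgeR.

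Skeletal muscle is built of slow fibres, which rely on mitochondrial respiration, and fast fibres, which rely more on glycolysis, and each type has its own myosins, troponins and calcium pumps. The respiratory chain of every fibre is assembled from subunits encoded in the nucleus and subunits encoded on the mitochondrial chromosome, while cytosolic ribosomal proteins, produced in concert, set much of the capacity for protein synthesis. Muscle also answers changes in nutrient supply through the integrated stress response, in which the transcription factor ATF4 activates genes of amino acid metabolism, and through glucocorticoid and FOXO signals that shift fuel use and protein breakdown.

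The labelled tissue was checked first. All 12 tested skeletal muscle fibre markers were present in every library, led by actin alpha 1 (ACTA1), and their summed level had a lowest, median and highest value of 121677, 165409 and 194169 CPM in control and 164154, 202661 and 212298 CPM in UL. Every one of these 12 genes had a log2(fold change) above 0, with a median of 0.33 against a median of -0.003 over all tested genes. Markers of other cells were far lower in sum. Macrophage markers summed to between 132 and 310 CPM, lymphocyte markers to between 13.2 and 38.6 CPM and erythroid markers to between 20.2 and 91.5 CPM over the 12 libraries, and LYZ, a macrophage marker, had no read in any of them.

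Some libraries stood apart before any diet comparison. Control replicate 25 had the most reads and the least connective tissue signal, with 3288 CPM summed over the fibroblast markers, while the other control piglets had between 6882 and 7412 CPM. Control replicate 24 had 668 CPM summed over the adipocyte markers, against at most 239 CPM in each of the other 11 piglets. In UL replicate 27 the mitochondrial chromosome held 8.64% of the counts, less than in any other of the 12 libraries. No library had the same counts as another. In bulk tissue, fewer cells of a type and less RNA per cell cannot be told apart.

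The share of counts on the mitochondrial chromosome was 14, 14.6 and 15.9% (lowest, median and highest) in control and 8.64, 11.4 and 14.8% in UL. It was lower in UL by a mean difference of -3.15 percentage points (p = 0.0108 by a two-sided exact permutation test, 0.0541 after adjustment over 5 library measures), and the diets overlapped through UL replicate 32. With each library left out the difference lay between -3.77 (without UL replicate 32) and -2.55 (without UL replicate 27), with an adjusted p-value of the exact permutation test between 0.0108 and 0.119. The lowest was that without UL replicate 32, where the overlap was removed with the library. The 10 most abundant genes held 25.8 to 29.4% of the counts in control and 27.0 to 32.0% in UL (two-sided exact permutation test, p = 0.0779, adjusted 0.188). Total reads, the number of genes with a read and the haemoglobin share had unadjusted p-values of 0.680, 0.433 and 0.113 in the same two-sided exact permutation test. The part of these measures in the gene-level differences was not tested.

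Across the transcriptome, 0 of 14203 genes passed the adjusted threshold with edgeR's quasi-likelihood test, which is 0% of those tested, and 1541 had an unadjusted p-value under 0.05. Of these, 829 were higher in UL (5.84% of tested genes) and 712 were lower (5.01%). The smallest adjusted p-value was 0.0933. The surplus of higher genes depended on the fit, with 916 higher and 645 lower under upper quartile scaling but 700 higher and 740 lower with only the 12 libraries in the model. With limma voom on the same 17 libraries 0 genes passed and 1540 had an unadjusted p-value under 0.05. With DESeq2 fitted to the 12 libraries and a Wald test, 148 of 9992 genes with an adjusted p-value passed it (1.48%), 81 higher and 67 lower in UL, and 10 of them were DEGs. The outcome of the adjusted test thus depended on the tool, and the differences below are given with their edgeR values.

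One library weighed on the edgeR outcome. Without Control replicate 25, 16 genes passed the adjusted threshold, 10 higher and 6 lower in UL, and 12 of the 16 were among the DESeq2 calls. Of the 16, NDUFAF8, an assembly factor of respiratory complex I that was chosen here after its values were seen, and ERCC6L were DEGs, at 1.04 and -1.07 on the log2 scale. CD302, DNAJB4, ZNF33B, AURKAIP1, PSMA7 and NDUFB10, described below, were also among the 16. Without Control replicate 24 or without UL replicate 27, 1 gene passed in each case, DDIT4 (also a DEG, log2(fold change) -1.45) in the first and CXXC5, likewise chosen after its values were seen, in the second. Without any other single library 0 genes passed. The background at an unadjusted p-value under 0.05 moved too. Without Control replicate 25, 1015 of 14094 tested genes were higher and 884 lower. With each library left out, the numbers ran from 672 to 1015 higher and from 587 to 884 lower. Counts of list members with a library left out, given below, are to be read beside these numbers.

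Most fold changes were small. The median log2(fold change) was -0.003 and 49.5% of the genes lay above 0, but TMM scaling itself centres the fold changes, and 51.2% lay above 0 under upper quartile scaling. With TMM the 5th and 95th percentiles were -0.55 and 0.51. In UL, 95 genes (0.669%) were higher and 134 (0.943%) lower by 1 or more on the log2 scale, and 758 and 857 by 0.5 or more. Of 5 classes of genes by level, the lowest had fold changes with an SD of 0.52 and the highest an SD of 0.23. The highest class held 266 of the 829 higher and 225 of the 712 lower genes at an unadjusted p-value under 0.05.

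For 70 genes every UL piglet lay above every control piglet (0.493% of tested genes), and for 51 genes every UL piglet lay below (0.359%). The UL piglets were closer in value to each other at most genes, since 60.7% of the genes had a smaller SD of log2 CPM in UL, with a median SD of 0.31 against 0.35. The mean distance between piglets of a diet was 82.9 in UL and 95.7 in control, a difference that a two-sided exact permutation test did not separate from relabelling (p = 0.143). The difference of 12.8 was 7.92 without Control replicate 25 (exact permutation, p = 0.398) and 17.7 without Control replicate 22 (exact permutation, p = 0.0584). The diet labels took up 10.7% of the variance in these distances, which was not separated from relabelling (PERMANOVA, one-sided exact permutation test, p = 0.152). Any relabelling of the piglets also takes up some share, which tends to be larger with fewer libraries. Without Control replicate 25 the share was 13.9% (p = 0.0346, exact permutation). The other 11 fits with 1 library left out had exact permutation p-values from 0.0779 to 0.281.

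**Figure D1:**
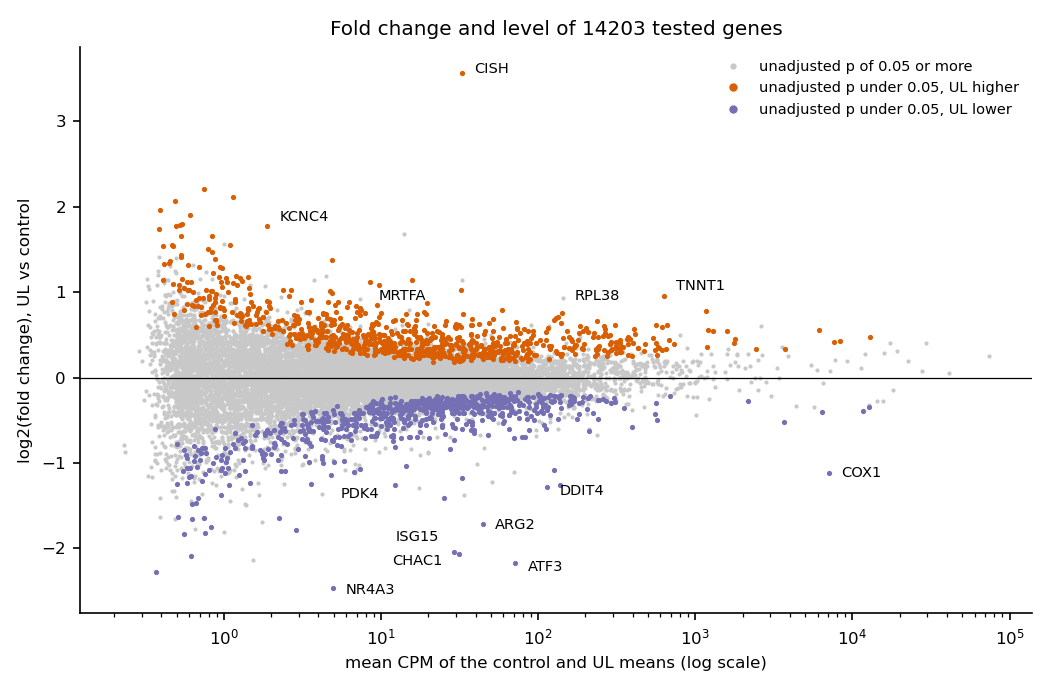
Each point is 1 of the 14203 tested genes, with its level on a log axis and its log2(fold change), UL vs control, on the vertical axis. Coloured points had an unadjusted edgeR p-value under 0.05, and 829 of them lie above 0 and 712 below.

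The genes with the smallest p-values mostly had moderate fold changes and little spread between piglets. CD302, a C-type lectin receptor (ENSSSCG00000036050, chromosome 15, 66696744 to 66732626 of Sscrofa11.1), whose gene model also covers MARCH7, had a lowest, median and highest value of 26.3, 31.7 and 36.8 CPM in control and of 15.7, 20.4 and 22.7 CPM in UL. The groups did not overlap, and the log2(fold change) was -0.66 (SE 0.11, adjusted p 0.0933). ERCC6L, a helicase of dividing cells (ENSSSCG00000021834, chromosome X, 58087169 to 58117947), had 2.48, 3.48 and 4.05 CPM in control and 1.27, 1.58 and 1.75 CPM in UL. It too was lower in every UL piglet than in any control piglet, with a log2(fold change) of -1.09 (SE 0.19, adjusted p 0.0933). DNAJB4, a heat shock protein 40 co-chaperone, had 387, 475 and 580 CPM in control and 267, 318 and 367 CPM in UL, again without overlap, and a log2(fold change) of -0.58 (SE 0.11, adjusted p 0.117). ZNF33B, COQ10B, which binds coenzyme Q, PDCD10 and the unnamed gene ENSSSCG00000045616 were also lower without overlap, at -0.58, -0.56, -0.36 and -1.09 on the log2 scale.

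Among the genes higher in UL, 2 cofactors of muscle transcription factors stood near the top. MRTFA, which carries actin signals to serum response factor (ENSSSCG00000000075, chromosome 5, 7757950 to 7975926), ranged from 8.43 to 10.3 CPM with a median of 9.67 in control and from 12 to 18.1 CPM with a median of 15.1 in UL. MAMSTR, a coactivator of MEF2 (ENSSSCG00000003143, chromosome 6, 54052249 to 54057877), ranged from 13.5 to 23.7 CPM with a median of 21.5 in control and from 23.8 to 35.9 CPM with a median of 33.4 in UL. Neither gene showed an overlap between diets, and the log2(fold change) was 0.67 (SE 0.13, adjusted p 0.117) for MRTFA and 0.66 (SE 0.14, adjusted p 0.138) for MAMSTR. ENTPD4, a nucleotide diphosphatase of the Golgi (ENSSSCG00000031871, chromosome 14, 7565604 to 7594057), had 24.5, 30.9 and 32.8 CPM in control and 35.8, 45.6 and 51.9 CPM in UL. Its log2(fold change) was 0.61 (SE 0.11, adjusted p 0.117), again without overlap, and PIK3C2B, a lipid kinase, and AFG3L2, a protease of the inner mitochondrial membrane, were higher by 0.68 and 0.39. Since these genes were picked by their p-values, the lack of overlap follows in part from the choice.

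AURKAIP1, a protein of the small mitochondrial ribosome, had 21.3, 23.7 and 28.1 CPM in control and 31.1, 35.3 and 40.4 CPM in UL. PSMA7, a core subunit of the proteasome, had 65.7, 74.7 and 98.1 CPM in control and 104, 109 and 115 CPM in UL. Both were higher in all 6 UL piglets than in any control piglet, with log2(fold change) values of 0.58 (SE 0.11, adjusted p 0.117) and 0.50 (SE 0.11, adjusted p 0.138). Of the 34 tested proteasome subunits 1, PSMA7, was higher and 1, PSMC6, lower at an unadjusted p-value under 0.05. Both shares lay under those of all tested genes (5.84% and 5.01%). With 1 library left out, 1 to 3 were higher and 0 to 2 lower, with 3 and 0 without Control replicate 25. The median log2(fold change) was 0.09, or 0.03 without UL replicate 27.

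Genes of cytosolic ribosomal proteins were higher in UL at an unadjusted p-value under 0.05 in most cases. Of 61 tested, 40 were higher in UL and 0 lower at an unadjusted p-value under 0.05, where 5.84% and 5.01% of all tested genes were, and 58 of the 61 (95.1%) had a log2(fold change) above 0. The median was 0.32, between 0.32 and 0.34 under the other normalizations and tools, and the values ran from -0.10 to 0.76. DESeq2 called 9 of these genes, all higher in UL, where it called 1.48% of all genes with an adjusted p-value. Summed over the list, the lowest, median and highest piglets had 17630, 21520 and 24169 CPM in control and 22276, 23377 and 32351 CPM in UL. UL replicates 28 and 32 were the highest of the 12 with 32351 and 28344 CPM, and the other 4 UL piglets lay among or just above the upper control piglets.

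RPL35, of the large subunit (ENSSSCG00000034227, chromosome 1, 265636637 to 265645348), had 83.0, 103 and 114 CPM in control and 134, 165 and 198 CPM in UL. RPL38, also of the large subunit (ENSSSCG00000017239, chromosome 12, 6884902 to 6905508), had 71.1, 108 and 121 CPM in control and 131, 178 and 220 CPM in UL. The diets did not overlap for either gene, with log2(fold change) values of 0.71 (SE 0.15, adjusted p 0.138) and 0.76 (SE 0.18, adjusted p 0.152). RPLP2, a protein of the ribosomal stalk, had 109, 153 and 176 CPM in control and 198, 222 and 251 CPM in UL, and RPS21, of the small subunit, had 80.4, 111 and 136 CPM in control and 140, 161 and 208 CPM in UL. Both were also without overlap, with log2(fold change) values of 0.60 (SE 0.14, adjusted p 0.152) and 0.64 (SE 0.15, adjusted p 0.152). Genes of this family have many near-identical processed copies in the genome, and the header of the counts names no option for reads placed at several sites, so the levels are uncertain.

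The count of higher ribosomal protein genes was 24 without UL replicate 28, 25 without UL replicate 32 and 26 without Control replicate 26, with 0 lower in each case. The median stayed between 0.24 and 0.37 with any 1 library left out. Other parts of the translation machinery had medians nearer to 0. Initiation and elongation factors had a median of 0.01, and 2 of 38, EIF3D and EIF3J, were higher and 0 lower at an unadjusted p-value under 0.05 (5.84% and 5.01% over all tested genes), or 5 higher without Control replicate 25, 4 higher without UL replicate 30, 2 lower without Control replicate 22 and 1 lower without UL replicate 27. Ribosome biogenesis factors had a median of -0.01, which changed sign under some settings and was -0.12 without UL replicate 27. Of 44, 2, NAT10 and DDX56, were higher and 1, UTP15, lower, against the same shares. With 1 library left out, 1 to 3 were higher and 0 to 3 lower, with 3 lower without UL replicate 27. Cytosolic aminoacyl-tRNA synthetases, which charge tRNA with amino acids, had a median of -0.13, with 15 of 22 below 0 and 1, TARS1, lower at an unadjusted p-value under 0.05, against the same shares. Without UL replicate 27 that median was -0.21 and 7 were lower, without Control replicate 21 3 were lower, and without Control replicates 23 or 26 or UL replicates 28, 29, 30 or 31, each left out alone, 0 were. The model of EIF3J also covers SPG11.

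**Figure D2:**
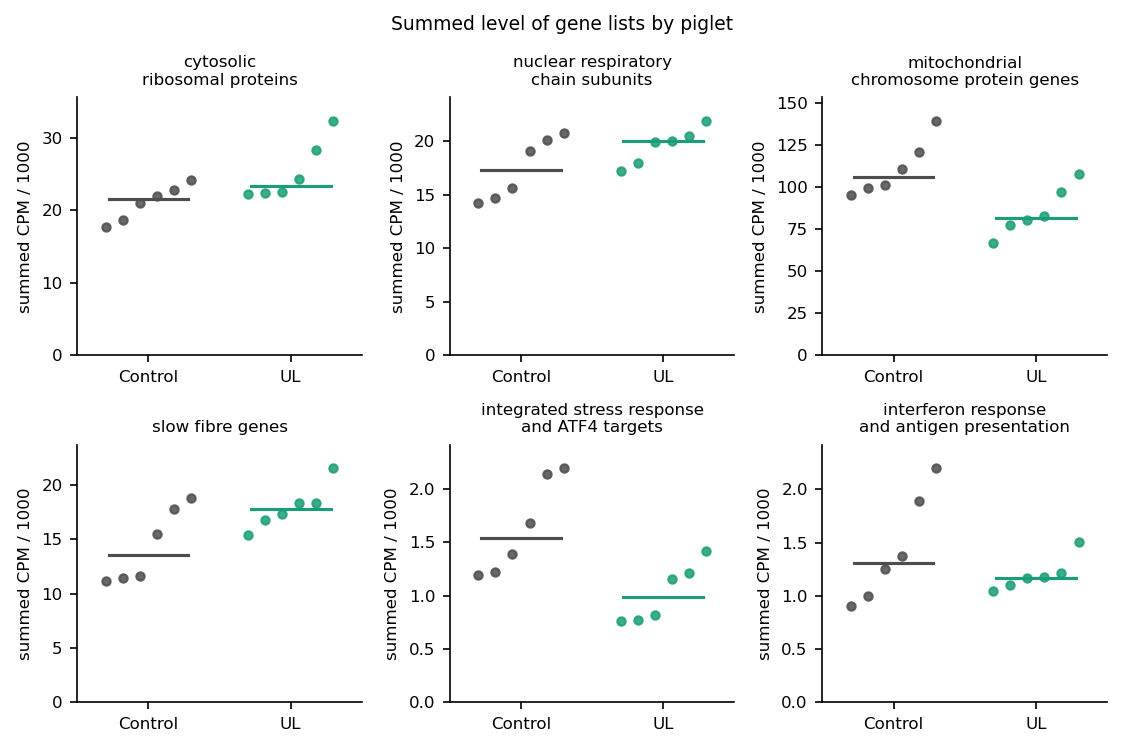
Each dot is the summed CPM of 1 gene list in 1 piglet, divided by 1000, ordered by value within a diet, and the line is the median of 6 piglets. Ribosomal protein, nuclear respiratory chain and slow fibre genes lay higher in UL in median, the mitochondrial chromosome and stress response genes lower, and the diets overlap in every panel.

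The respiratory chain divided by genome. Of 64 tested nuclear subunits, 22 were higher and 0 lower in UL at an unadjusted p-value under 0.05 (5.84% and 5.01% over all tested genes), 56 (87.5%) had a log2(fold change) above 0, and the median was 0.20. Of the 13 protein genes of the mitochondrial chromosome, 0 were higher and 5 lower (ND4L, ND5, COX1, COX2 and CYTB) against the same shares, 12 lay below 0, and the median was -0.35. Neither median changed sign under the other normalizations and tools, where they lay between 0.19 and 0.22 and between -0.36 and -0.34. Summed levels of the nuclear subunits had a lowest, median and highest value of 14202, 17317 and 20759 CPM in control and 17170, 19980 and 21899 CPM in UL, and those of the mitochondrial chromosome 95103, 105836 and 139239 CPM in control and 66515, 81558 and 107479 CPM in UL. Both sums overlapped between diets.

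NDUFV3, an accessory subunit of complex I (ENSSSCG00000021991, chromosome 13, 206111408 to 206127732), ranged from 20.1 to 41.7 CPM with a median of 28.5 in control and from 39.8 to 55.8 CPM with a median of 45.3 in UL. NDUFA3, another subunit of complex I whose gene model also covers OSCAR, ranged from 15.6 to 36.9 CPM with a median of 21.8 in control and from 32.4 to 52.4 CPM with a median of 40.2 in UL. The highest control piglets reached into the UL range for both, and the log2(fold change) was 0.69 (SE 0.18, adjusted p 0.171) and 0.75 (SE 0.22, adjusted p 0.199). NDUFB10 and NDUFS6 were higher by 0.46 and 0.52, and subunits of the later complexes were among the 22, including UQCR10, COX8A and ATP5ME. 

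On the mitochondrial chromosome, ND4L, a complex I subunit, had 3600, 4422 and 4682 CPM in control and 2513, 3001 and 3713 CPM in UL. In 5 of the 6 UL piglets it lay below every control piglet, and the log2(fold change) was -0.52 (SE 0.16, adjusted p 0.250). ND5 had 6600, 7028 and 8634 CPM in control and 3665, 5430 and 7281 CPM in UL, likewise with 5 UL piglets under the control range, and a log2(fold change) of -0.40 (SE 0.16, adjusted p 0.368). COX1, the catalytic subunit of complex IV, had the lowest value of the list, -1.12 (SE 0.39, adjusted p 0.313), but 2 control piglets stood high. Control replicate 24 had 25893 CPM and Control replicate 25 had 12950 CPM, while the other 10 piglets had between 2829 and 6851 CPM. The value of COX1 was -0.53 without Control replicate 24 and -0.78 with limma voom. The number of lower genes was 5 of 13 with all libraries, 2 without UL replicate 27 or Control replicate 25 and 3 without Control replicate 21 or UL replicates 29, 30 or 31, each left out alone, and the median stayed between -0.43 and -0.26.

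Among 30 genes of mitochondrial biogenesis the median was 0.05, and it changed sign without UL replicate 27. MFN2, which fuses outer mitochondrial membranes, TOMM40, a pore for protein import, and PPARGC1B, a transcriptional coactivator, were higher by 0.34, 0.29 and 0.76, and GABPA and GABPB1, of a nuclear respiratory factor, MTERF1 and SIRT1 were lower at an unadjusted p-value under 0.05 (5.84% and 5.01% over all tested genes), with -0.37 for GABPB1. The number of lower genes was 1 without Control replicate 23 or UL replicates 28 or 31 and 2 without Control replicates 25 or 26 or UL replicate 32, each left out alone. Of 34 genes of the citric acid cycle and pyruvate dehydrogenase 22 lay above 0, with a median of 0.04, and 1, MDH2, was higher (log2(fold change) 0.33) and 1, PDK4, lower at an unadjusted p-value under 0.05, shares under those of all tested genes (5.84% and 5.01%). Without Control replicate 25 the median was 0.14 and 7 were higher, where 1015 of all 14094 tested genes were. Without UL replicate 30 3 were higher, and without Control replicate 22 the median was -0.01.

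Short genes as a class had medians above 0. Genes with up to 500 bases of exon had a median log2(fold change) of 0.18 over 165 genes, and those from 500 to 1000 bases 0.17 over 344 genes. The median was 0.06 from 1000 to 2000 bases, -0.00 from 2000 to 4000, -0.03 from 4000 to 8000 and -0.02 over 8000 bases. Without the ribosomal protein and nuclear respiratory chain genes the first 2 medians were 0.16 and 0.14. At an unadjusted p-value under 0.05, 18.2% of the genes were higher and 4.85% lower in the class of up to 500 bases and 16.3% and 1.45% in that from 500 to 1000 bases, while in the other 4 classes 4.65 to 7.94% were higher and 2.58 to 6.00% lower (5.84% and 5.01% over all tested genes). Exonic length sums all exons of a gene and can exceed the length of its transcripts.

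The lists differed from their length class to unequal degrees. Ribosomal protein genes had a median exonic length of 1575 bases and nuclear respiratory chain genes of 1608 bases, where the class median was 0.06 and their own medians were 0.32 and 0.20. The protein genes of the mitochondrial chromosome had a median length of 784 bases, in a class with a median of 0.17, and were lower at -0.35. Within diets the class from 500 to 1000 bases also varied. Relative to the control mean on the log2 scale, its median was 0.26 in Control replicate 21 and -0.15 in Control replicate 26, and from 0.07 to 0.26 over the UL piglets. The part of gene length in the pattern of the lists was not tested.

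**Figure D3:**
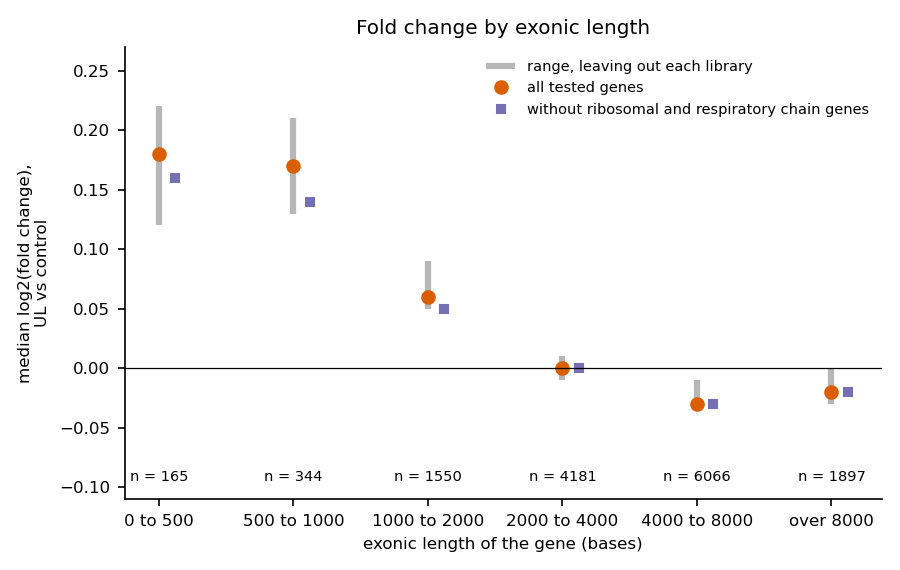
Points give the median log2(fold change), UL vs control, of genes in 6 classes of exonic length, with and without the ribosomal protein and nuclear respiratory chain genes, and grey bars give the range with any 1 library left out. The medians run from 0.18 for genes of up to 500 bases to -0.03 for genes of 4000 to 8000 bases.

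Contractile genes mostly had a log2(fold change) above 0, with the larger median in slow fibre genes. Of 16 tested slow fibre genes, 11 were higher and 0 lower at an unadjusted p-value under 0.05 (5.84% and 5.01% over all tested genes), 15 lay above 0, and the median was 0.55. Of 17 fast fibre genes, 5 were higher (TNNT3, TNNI2, TNNC2, ATP2A1 and MYBPC2) and 0 lower, against the same shares, 15 lay above 0, and the median was 0.28. Both medians were above 0 under every normalization and tool used. The number of higher slow fibre genes was 5 without Control replicate 24 or without UL replicate 29, and 7 without Control replicates 21, 22 or 26 or UL replicate 30, each left out alone. The summed level of slow fibre genes had a lowest, median and highest value of 11180, 13584 and 18774 CPM in control and 15424, 17818 and 21561 CPM in UL, and that of fast fibre genes 132797, 177383 and 232799 CPM in control and 171291, 211215 and 230725 CPM in UL.

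TNNT1, the slow troponin T (ENSSSCG00000025353, chromosome 6, 59347582 to 59365589), ranged from 298 to 711 CPM with a median of 379 in control and from 574 to 1176 CPM with a median of 826 in UL. In 4 UL piglets it exceeded every control piglet, with Control replicate 25 the highest of its diet, and the log2(fold change) was 0.95 (SE 0.26, adjusted p 0.180). TNNI1, the slow troponin I, ranged from 319 to 673 CPM with a median of 387 in control and from 477 to 961 CPM with a median of 670 in UL, a log2(fold change) of 0.62 (SE 0.22, adjusted p 0.326). The gene model named MYH6 also covers MYH7, the slow myosin heavy chain, and LOC100736765, and these cannot be separated. It ranged from 653 to 1187 CPM with a median of 768 in control and from 1058 to 2495 CPM with a median of 1351 in UL, with UL replicate 29 far above the rest, and its log2(fold change) was 0.78 (SE 0.24, adjusted p 0.232). ATP2A2, the slow calcium pump, was higher by 0.50, and ANKRD2, a stretch-responsive protein of slow fibres, by 1.02.

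Among fast fibre genes, TNNI2, the fast troponin I, had 3060, 4473 and 7564 CPM in control and 5524, 7434 and 8314 CPM in UL, and TNNT3, the fast troponin T, had 4990, 7050 and 8920 CPM in control and 8059, 9792 and 10909 CPM in UL. The log2(fold change) was 0.56 (SE 0.19, adjusted p 0.279) for TNNI2 and 0.43 (SE 0.15, adjusted p 0.296) for TNNT3, and in TNNT3 5 of 6 UL piglets lay above all control piglets. TNNC2 and MYBPC2 were higher by 0.48 and 0.33. Of the most abundant contractile genes MYL11, the fast regulatory light chain, had a log2(fold change) of 0.40, TPM1, an alpha tropomyosin, had 0.29, ACTA1 had 0.25, the model that covers the fast myosin heavy chains MYH1, MYH2 and MYH4 had 0.20, and MYL1 had 0.05, which changed sign when Control replicate 26 or UL replicate 28 was left out.

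Of 36 tested genes that couple excitation to contraction, 10 were higher and 0 lower at an unadjusted p-value under 0.05 (5.84% and 5.01% over all tested genes), 32 lay above 0, and the median was 0.20. CAMK2A, a calcium-dependent kinase, had 111, 137 and 170 CPM in control and 170, 186 and 218 CPM in UL, with 5 UL piglets above the control range and a log2(fold change) of 0.43 (SE 0.13, adjusted p 0.243). RYR1, the calcium release channel, measured here by a gene model with 5781 bases of exon, had 9.17, 14 and 16.4 CPM in control and 14, 18.9 and 25.3 CPM in UL and a log2(fold change) of 0.54 (SE 0.21, adjusted p 0.373). SRL, a calcium-binding protein of the sarcoplasmic reticulum, and CACNG1, a subunit of the voltage sensor, were higher by 0.40 and 0.48. Sarcomere and Z disc genes had a median of 0.17, with 5 of 37 higher (ACTN2, MYBPC2, LDB3, CAPZB and ANKRD2) and 0 lower, against the same shares, and the count was 3 without Control replicate 22, Control replicate 24 or UL replicate 27, each left out alone. The model of LDB3 also covers OPN4.

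Myogenic regulators were mixed. MYOD1, which specifies muscle cells, ranged from 46.5 to 63.2 CPM with a median of 53.3 in control and from 58.7 to 97.2 CPM with a median of 77.7 in UL, a log2(fold change) of 0.49 (SE 0.19, adjusted p 0.351). In 4 of 6 UL piglets it lay above every control piglet. MEF2C, a transcription factor of differentiating muscle, was higher by 0.40, and over the 29 genes of the list the median was 0.09, or 0.16 without UL replicate 27. At the neuromuscular junction, DOK7, an activator of the kinase MuSK, was low in all piglets, with 0.121, 0.323 and 0.669 CPM in control and 0.231, 0.839 and 0.978 CPM in UL. Its log2(fold change) was 1.16 (SE 0.47, adjusted p 0.385), and that of CHRNE, the adult acetylcholine receptor subunit, was 0.70 (0.46 without UL replicate 30), while the list of 18 had a median of 0.05, which was 0.17 without Control replicate 22 and changed sign without Control replicates 23 or 24 or UL replicate 29, each left out alone. These 2 genes were higher and 0 of the list lower at an unadjusted p-value under 0.05 (5.84% and 5.01% over all tested genes). With 1 library left out, 1 to 2 were higher and 0 to 1 lower.

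**Figure D4:**
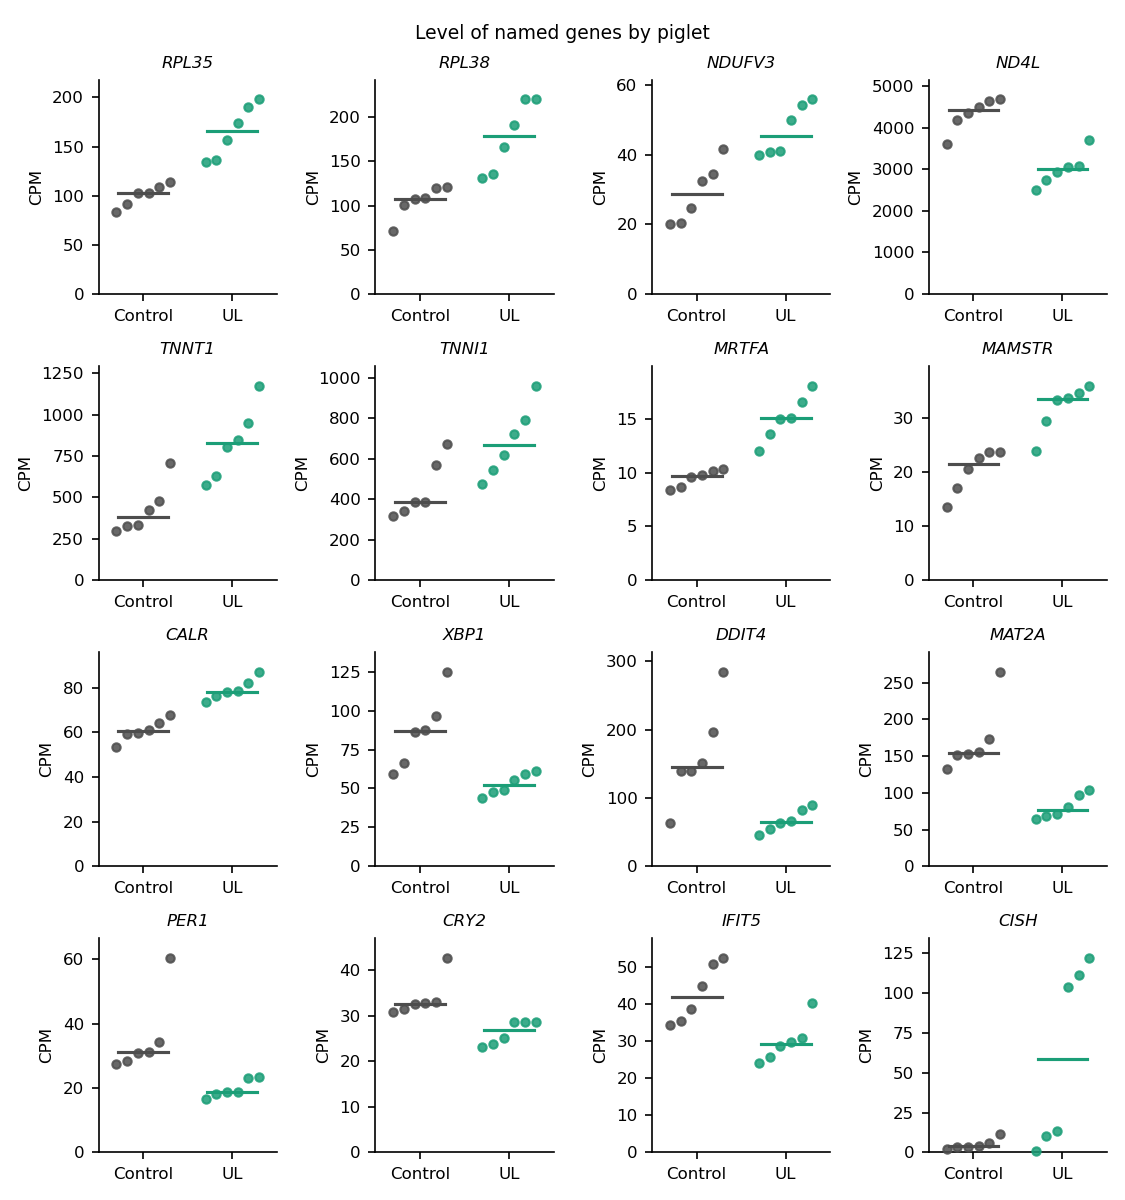
Each panel shows the CPM of 1 gene, each dot is 1 piglet ordered by value within its diet, and the line is the median of 6 piglets. RPL35, RPL38, MRTFA, MAMSTR and CALR are higher in every UL piglet than in any control piglet, and MAT2A, PER1 and CRY2 lower, while CISH is high in 3 UL piglets.

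Genes of the integrated stress response were lower in UL in median. Of 34 tested, 0 were higher and 6 lower at an unadjusted p-value under 0.05 (5.84% and 5.01% over all tested genes), 30 lay below 0, and the median was -0.40, between -0.41 and -0.40 under the other normalizations and tools. The summed level had a lowest, median and highest value of 1189, 1535 and 2193 CPM in control and 766, 989 and 1415 CPM in UL. UL replicate 27 was the highest UL piglet, and without it the number of lower genes was 15, while it was 4 without Control replicate 23. Within the control diet the list was spread widely, with 2193 CPM in Control replicate 23 and 2136 CPM in Control replicate 26.

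DDIT4, an inhibitor of mTORC1 signalling, had 63.1, 146 and 285 CPM in control and 45.3, 64.4 and 89.6 CPM in UL. Its log2(fold change) was -1.28 (SE 0.25, adjusted p 0.117), and 3 UL piglets lay under the control range. ATF3, a transcription factor induced by stress, had 19.3, 120 and 227 CPM in control and 7.35, 21.3 and 62.8 CPM in UL, and CHAC1, which degrades glutathione, had 20.2, 24 and 123 CPM in control and 4.16, 9.91 and 22.8 CPM in UL. The control piglets differed severalfold among themselves for both genes, and the log2(fold change) was -2.17 (SE 0.54, adjusted p 0.155) for ATF3 and -2.07 (SE 0.55, adjusted p 0.171) for CHAC1. HERPUD1, of protein degradation at the endoplasmic reticulum, had 46.4, 66.9 and 88.4 CPM in control and 38.1, 49.5 and 59.1 CPM in UL, a log2(fold change) of -0.45 (SE 0.15, adjusted p 0.275), and its gene model also covers SLC12A3. DDIT3 and PSAT1 completed the 6.

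The unfolded protein response was divided. XBP1, its transcription factor (ENSSSCG00000030996, chromosome 14, 46008377 to 46017036), ranged from 59.0 to 125 CPM with a median of 86.7 in control and from 43.9 to 61.5 CPM with a median of 52.1 in UL, a log2(fold change) of -0.71 (SE 0.15, adjusted p 0.138). CALR, a calcium-binding chaperone (ENSSSCG00000013746, chromosome 2, 66098225 to 66102340), ranged from 53.5 to 67.8 CPM with a median of 60.5 in control and from 73.7 to 87.2 CPM with a median of 78.2 in UL, higher in all 6 UL piglets than in any control piglet, with a log2(fold change) of 0.38 (SE 0.14, adjusted p 0.325). DNAJB9 and SEL1L were lower at -0.27 and -0.36 (SEL1L -0.22 without Control replicate 26), and over 23 genes the median was -0.08, or -0.03 without Control replicate 21 and -0.13 without Control replicate 25. Of the 23, 1, CALR, was higher and 4, XBP1, DNAJB9, SEL1L and ERO1B, lower at an unadjusted p-value under 0.05 (5.84% and 5.01% over all tested genes). Without Control replicate 26 or UL replicate 30, each left out alone, 2 were lower, and without Control replicate 24 2 were higher.

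Around amino acids, 19 of 25 transporters lay below 0 with a median of -0.17, which was -0.08 without Control replicate 23, -0.09 without Control replicate 25 or UL replicate 30 and -0.10 without Control replicate 26. Of the transporters 1, the lysosomal arginine sensor SLC38A9, was lower at an unadjusted p-value under 0.05, where 5.01% of all tested genes were (-0.29, without overlap, -0.19 without Control replicate 21). The count was 5 without UL replicate 27 and 3 without Control replicate 21. In the methionine cycle and polyamine list the median was 0.01, which changed sign without Control replicates 21 or 22 or UL replicates 29 or 32, each left out alone, but single genes differed more. MAT2A, which makes S-adenosylmethionine, had 132, 154 and 265 CPM in control and 65.0, 76.1 and 104 CPM in UL without overlap, a log2(fold change) of -1.08 (SE 0.24, adjusted p 0.152), and its model also covers GGCX. ARG2, the mitochondrial arginase, had 32.2, 57.2 and 145 CPM in control and 7.35, 14.8 and 43.4 CPM in UL, a log2(fold change) of -1.72 (SE 0.50, adjusted p 0.210). MTR, methionine synthase, was lower at -0.44. Of 30 mTORC1 regulators and targets, LAMTOR1 and RRAGD, which recruit the complex to lysosomes, were higher by 0.26 and 0.28, and DDIT4 was lower, at an unadjusted p-value under 0.05 (5.84% and 5.01% over all tested genes). The median was 0.03, or -0.01 without Control replicate 22, where 4 were higher. There were also 4 higher without UL replicate 30, but 1 higher without UL replicate 31. Lower genes numbered 3 without Control replicate 21 or UL replicate 28 and 2 without Control replicate 25 or UL replicate 27.

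Targets of FOXO and glucocorticoid signalling had 0 higher and 7 lower of 28 at an unadjusted p-value under 0.05, where 5.01% of all tested genes were lower. The median was -0.16, or -0.32 without UL replicate 28 and -0.24 without Control replicate 23, where 1 gene was higher. The summed level did not share this direction in median, with 1507, 1735 and 2301 CPM in control and 1487, 1774 and 2009 CPM in UL. PDK4, which spares glucose by inhibiting pyruvate dehydrogenase, ranged from 5.09 to 38.8 CPM with a median of 12.1 in control and from 5.29 to 10.8 CPM with a median of 6.68 in UL. All UL piglets lay inside the wide control range, and the log2(fold change) was -1.26 (SE 0.37, adjusted p 0.213). GLUL, glutamine synthetase, ranged from 160 to 336 CPM with a median of 258 in control and from 136 to 194 CPM with a median of 164 in UL, with a log2(fold change) of -0.63 (SE 0.19, adjusted p 0.219). ZBTB16 and FOXO1 were lower at -0.67 and -0.37 (FOXO1 -0.24 without Control replicate 25), and TSC22D3 and KLF9 were also among the 7. The ubiquitin ligases of muscle atrophy FBXO32 and TRIM63 were not among them.

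PER1, a glucocorticoid target and a repressor of the circadian clock (ENSSSCG00000017983, chromosome 12, 53361868 to 53376611), had 27.3, 31.1 and 60.4 CPM in control and 16.5, 18.8 and 23.3 CPM in UL. CRY2, its partner (ENSSSCG00000013270, chromosome 2, 16585966 to 16620405), had 30.8, 32.7 and 42.7 CPM in control and 23.1, 26.8 and 28.7 CPM in UL. For both genes every UL piglet lay under every control piglet, with log2(fold change) values of -0.84 (SE 0.25, adjusted p 0.223) and -0.37 (SE 0.10, adjusted p 0.197). PER2 and CIART, also clock repressors, were lower at -0.41 and -0.53 with overlap (CIART -0.35 without Control replicate 25). Over 25 clock genes 0 were higher and these 4 lower at an unadjusted p-value under 0.05, where 5.01% of all tested genes were lower, and 2 were lower without Control replicate 25. The median was -0.07, between -0.12 without Control replicate 26 and -0.02 without UL replicate 29. Times of sampling were not used here, and their part was not tested.

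Immediate early genes went both ways, with DUSP1, ZFP36L1 and IER3 higher and NR4A3 and ATF3 lower at an unadjusted p-value under 0.05 (5.84% and 5.01% over all tested genes), and a median over 29 genes of -0.00 that changed sign under some settings. NR4A3, an orphan nuclear receptor induced by exercise, ranged from 1.94 to 15.3 CPM with a median of 9.17 in control and from 0.347 to 2.94 CPM with a median of 1.57 in UL, a log2(fold change) of -2.46 (SE 0.55, adjusted p 0.152). DUSP1, a phosphatase of stress kinases, ranged from 32.1 to 70.7 CPM with a median of 37.3 in control and from 40.2 to 125 CPM with a median of 71.3 in UL, a log2(fold change) of 0.79 (SE 0.23, adjusted p 0.200). The former was lower and the latter higher, with 3 UL piglets outside the control range in each case. ZFP36L1, which destabilizes messenger RNA, was higher by 0.45.

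CISH, an inhibitor of growth hormone and cytokine signalling through STAT5, had the largest fold change among genes with a mean of at least 1 CPM and an unadjusted p-value under 0.05. Control piglets had 1.86, 3.79 and 11.6 CPM as lowest, median and highest value, and UL piglets 0.967, 58.7 and 122 CPM. The UL values fell into distinct levels, with 122, 104 and 111 CPM in replicates 28, 29 and 30, 10.1 and 13.5 CPM in replicates 27 and 32, and 0.967 CPM in replicate 31, which was under every control piglet. The log2(fold change) was 3.57 (SE 0.95, adjusted p 0.171), and it stayed between 3.24 and 4.02 when each library was left out. With limma voom it was 2.52 (adjusted p 0.469), and with DESeq2 on 12 libraries 3.57 (adjusted p 0.0118). The list of growth hormone, IGF and JAK-STAT genes around it had a median of -0.05, which changed sign without UL replicate 27 or 31, while its summed level was higher in UL in median, with 1572, 1646 and 1987 CPM in control and 1699, 1981 and 2317 CPM in UL. IGF2, a growth factor, and SOCS5, another inhibitor of cytokine signalling, were also higher at an unadjusted p-value under 0.05, and IL6ST and BCL6 were lower (5.84% and 5.01% over all tested genes), or 5 genes lower without Control replicate 25, 4 without Control replicate 21 and 1 without Control replicate 23. IL6ST, the shared receptor of the interleukin 6 family, had 97.8, 119 and 132 CPM in control and 78.9, 90.8 and 98.9 CPM in UL, with a log2(fold change) of -0.39 (SE 0.10, adjusted p 0.155). BCL6, a repressor of STAT5 targets, was lower at -0.68.

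The next largest fold changes upward among such genes came from low levels. KCNC4, a voltage-gated potassium channel, had 0.109, 0.684 and 1.65 CPM in control and 1.08, 2.63 and 6.30 CPM in UL and a log2(fold change) of 1.78 (SE 0.49, adjusted p 0.181). The unnamed gene ENSSSCG00000042227 had 0.0637, 0.303 and 1.04 CPM in control and 0.520, 1.32 and 5.93 CPM in UL, where UL replicate 30 had the highest value, and a log2(fold change) of 2.11 (SE 0.62, adjusted p 0.213), or 1.29 without that library. In both genes 4 UL piglets exceeded the control range. In the other direction the largest were NR4A3, ATF3, CHAC1 and ISG15, which are described with their groups. The unnamed gene ENSSSCG00000006932 had -1.78, but its value was as small as -0.24 when 1 library, Control replicate 21, was left out, and -0.75 with limma voom.

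Interferon response and antigen presentation genes were lower in UL in median. Of 35 tested, 0 were higher and 6 lower at an unadjusted p-value under 0.05 (5.84% and 5.01% over all tested genes), 31 lay below 0, and the median was -0.27. This rested in part on a few piglets. Summed levels were 2201 CPM in Control replicate 21 and 1889 CPM in Control replicate 22, 1509 CPM in UL replicate 27, and between 902 and 1374 CPM in the other 9 piglets. Without Control replicate 22 the median was -0.11 and 3 genes were lower, without Control replicate 25 it was -0.43 and 9 were lower, and without UL replicate 27 the median was -0.52 and 10 were lower.

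ISG15, a ubiquitin-like protein induced by interferon, had 8.34, 14 and 207 CPM in control and 5.72, 10.4 and 22.2 CPM in UL. The highest value was that of Control replicate 21, and the log2(fold change) of -2.04 (SE 0.66, adjusted p 0.272) was -0.37 without that library and -0.93 with limma voom. IFIT5, which binds foreign RNA and whose model also covers LOC100151816, had 34.3, 41.8 and 52.5 CPM in control and 24, 29.2 and 40.4 CPM in UL. In 5 of 6 UL piglets it lay under every control piglet, and the log2(fold change) was -0.51 (SE 0.14, adjusted p 0.175). CXCL10, a chemokine whose model also covers ART3, had 4.06, 30.4 and 73.0 CPM in control and 8.61, 13.9 and 18.5 CPM in UL and a log2(fold change) of -1.41 (SE 0.52, adjusted p 0.342), or -0.92 with limma voom, with every UL piglet inside the control range. Among 28 genes of cytokines and inflammation 3 were lower (IL33, NFKBIZ and CXCL12) and 0 higher at an unadjusted p-value under 0.05, where 5.01% of all tested genes were lower. IL33, an alarm cytokine of stromal cells, had 5.59, 7.58 and 23.2 CPM in control, 4.21, 4.33 and 6.18 CPM in UL, where Control replicate 24 had the highest value, and a log2(fold change) of -1.07 (SE 0.28, adjusted p 0.171), or -0.62 without that library. The number of lower genes in that list was 1 without Control replicate 22 or UL replicate 31 and 5 without Control replicate 25. Macrophage and lymphocyte markers had medians of -0.23 and -0.28. At an unadjusted p-value under 0.05 there were 0 of 11 and 0 of 9 genes, where 5.84% of all tested genes were higher and 5.01% lower. The part of these cells in the values above was not tested. The macrophage median was -0.40 without UL replicate 30, -0.12 without UL replicate 31 and -0.09 without Control replicate 26, and the lymphocyte median -0.15 without Control replicate 22.

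Adipocyte markers had a log2(fold change) below 0 in all 8 tested genes, with a median of -0.68, but 1 piglet weighed heavily. Their summed level had a lowest, median and highest value of 125, 210 and 668 CPM in control and 101, 149 and 239 CPM in UL. The highest belonged to Control replicate 24, and without it the median was -0.23 and 0 of the 8 had an unadjusted p-value under 0.05. With all libraries 0 were higher and 2, PPARG and CFD, lower, where 5.84% and 5.01% of all tested genes were. FABP4, a fatty acid carrier and the most abundant of them, had 53.4, 90.9 and 311 CPM in control and 42.8, 72.0 and 105 CPM in UL, and PPARG, the transcription factor of fat cells, had 2.34, 4.47 and 13 CPM in control and 1.73, 2.56 and 4.74 CPM in UL. The log2(fold change) was -0.68 (SE 0.41, adjusted p 0.577) for FABP4 and -0.95 (SE 0.34, adjusted p 0.328) for PPARG, or -0.12 and -0.49 without Control replicate 24. ME1, which supplies NADPH for fat synthesis, had 155 CPM in Control replicate 24 and between 9.48 and 33.4 CPM in the other 11 piglets, and 25 genes of fatty acid and triglyceride synthesis had a median of -0.18, which was -0.00 without Control replicate 24. Of these 25, AGPAT2 and GPAT4 were higher and ME1 and ELOVL5 lower at an unadjusted p-value under 0.05 (5.84% and 5.01% over all tested genes). The number of higher genes was 0 without Control replicates 22 or 25 or UL replicate 31 and 1 without Control replicates 21, 23 or 24 or UL replicates 27, 29, 30 or 32, each left out alone. The number of lower genes was 0 without Control replicate 24 or UL replicates 28 or 29, 1 without Control replicates 21 or 23 or UL replicate 30, and 4 without Control replicates 22 or 26 or UL replicate 31, each left out alone.

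In the sterol pathway, SQLE, squalene epoxidase, ranged from 3.39 to 7.02 CPM with a median of 5.55 in control and from 5.78 to 12.1 CPM with a median of 9.44 in UL, and INSIG1, a sterol-regulated brake on the pathway, ranged from 10.7 to 19.5 CPM with a median of 12.3 in control and from 16.4 to 37.9 CPM with a median of 20.8 in UL. Both were higher in 4 UL piglets than in any control piglet, with log2(fold change) values of 0.73 (SE 0.21, adjusted p 0.199) and 0.77 (SE 0.23, adjusted p 0.213), while INSIG2 was lower at -0.25. The 30 cholesterol genes had a median of -0.03 that changed sign under some settings, so the list did not share 1 direction. Of 40 genes of fatty acid oxidation, with a median of -0.03, ETFA, PPARD and PPARGC1B were higher and CD36, PDK4 and PPARG lower at an unadjusted p-value under 0.05 (5.84% and 5.01% over all tested genes). The number of higher genes was 7 without Control replicate 25, 0 without Control replicate 22 and 1 without UL replicates 27, 31 or 32, each left out alone. Without UL replicate 27, 5 were lower and the median was -0.10. It was -0.07 without UL replicate 29 and 0.01 without UL replicate 32. CD36, a fatty acid transporter whose model also covers LOC100511343, had -0.30, and ETFA, an electron carrier, had 0.30.

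Collagens and extracellular matrix genes had a median of -0.10, with 0 of 55 higher and 3 lower at an unadjusted p-value under 0.05 (5.84% and 5.01% over all tested genes), NID1 (whose model also covers LYST), OGN and ASPN. Summed levels had a lowest, median and highest value of 5912, 10938 and 11568 CPM in control and 7471, 8965 and 12792 CPM in UL, and the lowest was that of Control replicate 25, without which the median was -0.18 and 13 genes were lower, while it was -0.04 without UL replicate 27. The number of lower genes was 7 without UL replicate 30 and 1 without Control replicate 22. COL3A1, the most abundant fibroblast marker, had 1613, 3521 and 3745 CPM in control and 1912, 2734 and 4021 CPM in UL and a log2(fold change) of -0.22 (SE 0.23, adjusted p 0.780), or -0.36 without Control replicate 25 or UL replicate 30 and -0.14 without UL replicates 27 or 32, each left out alone. Of 11 fibroblast markers 9 lay below 0, with a median of -0.13, which was -0.25 without UL replicate 30, -0.23 without Control replicate 25, -0.07 without UL replicate 28 and -0.01 without Control replicate 21. Endothelial, smooth muscle and Schwann cell markers had medians of 0.12, 0.02 and 0.11, each of which changed sign under at least 1 setting. The Schwann cell median was -0.50 with limma voom, -0.22 without UL replicate 32 and -0.16 with only the 12 libraries in the model. The endothelial median was -0.04 without UL replicate 32, and the smooth muscle median -0.09 without Control replicate 23. The 10 satellite cell markers had a median of -0.08 (-0.15 without Control replicate 25 and -0.02 without Control replicate 23), with 5 above 0 and 5 below. Of them 0 were higher and 2, SPRY1 and CHODL, lower at an unadjusted p-value under 0.05 (5.84% and 5.01% over all tested genes). CHODL had -0.37, or -0.22 without Control replicate 23. ITGA7, the most abundant of the 10, had 0.18, and their summed level had a mean of 385 CPM in control and 386 CPM in UL. The 4 erythroid genes tested (HBB, AHSP, ALAS2 and HBM) had a median of 0.37 (0.63 without Control replicate 21 and 0.24 without Control replicate 22), led by HBB with 19.4, 42.8 and 60.2 CPM in control and 34.0, 63.9 and 87.0 CPM in UL.

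The remaining lists had medians between -0.06 and 0.09, and with 1 library left out the most distant were -0.14 for heat shock proteins without UL replicate 27 and 0.12 for glycolysis without Control replicate 21. Glycolysis and glycogen genes had a median of 0.09 (0.01 without Control replicate 22, 0.02 without Control replicate 26 and 0.03 without UL replicate 27), with ENO1, enolase 1, higher at 176, 246 and 299 CPM in control and 299, 311 and 381 CPM in UL, just without overlap (log2(fold change) 0.39 (SE 0.12, adjusted p 0.232)), and GBE1, glycogen branching enzyme, lower at -0.48. In insulin signalling INSR, the insulin receptor, was higher by 0.44, and PRKAA1, a catalytic subunit of AMP-activated kinase, had 28.7, 32.8 and 41.2 CPM in control and 16.5, 23.5 and 29.9 CPM in UL, a log2(fold change) of -0.54 (SE 0.13, adjusted p 0.152), around a list median of -0.02. Medians were -0.02 for autophagy and lysosome, -0.04 for heat shock proteins, 0.02 for antioxidant genes, -0.03 for the cell cycle, -0.00 for vascular growth and -0.03 for thyroid hormone genes. Each of these except the thyroid hormone median changed sign in at least 1 fit with 1 library left out, as did the insulin signalling median. Of the 29 thyroid hormone genes, 3 were higher (MYH6, ATP2A2 and ATP2A1) and 4 lower (PDK4, ME1, KLF9 and GPD2) at an unadjusted p-value under 0.05 (5.84% and 5.01% over all tested genes), or 2 lower without UL replicates 27, 30 or 31, each left out alone. Their summed level was 26929 CPM in control and 31972 CPM in UL in median, while 16 of the 29 lay below 0. The 3 higher genes and the model of the fast myosin heavy chains, which also enters this sum, belong to the fibre lists above as well. In the metal and iron list, with a median of -0.06, the iron exporter SLC40A1 had 53.9, 71.7 and 85.6 CPM in control and 37.8, 50.4 and 62.8 CPM in UL, a log2(fold change) of -0.51 (SE 0.15, adjusted p 0.215), and ISCU, a scaffold for iron-sulphur clusters, was higher by 0.37.

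**Figure D5:**
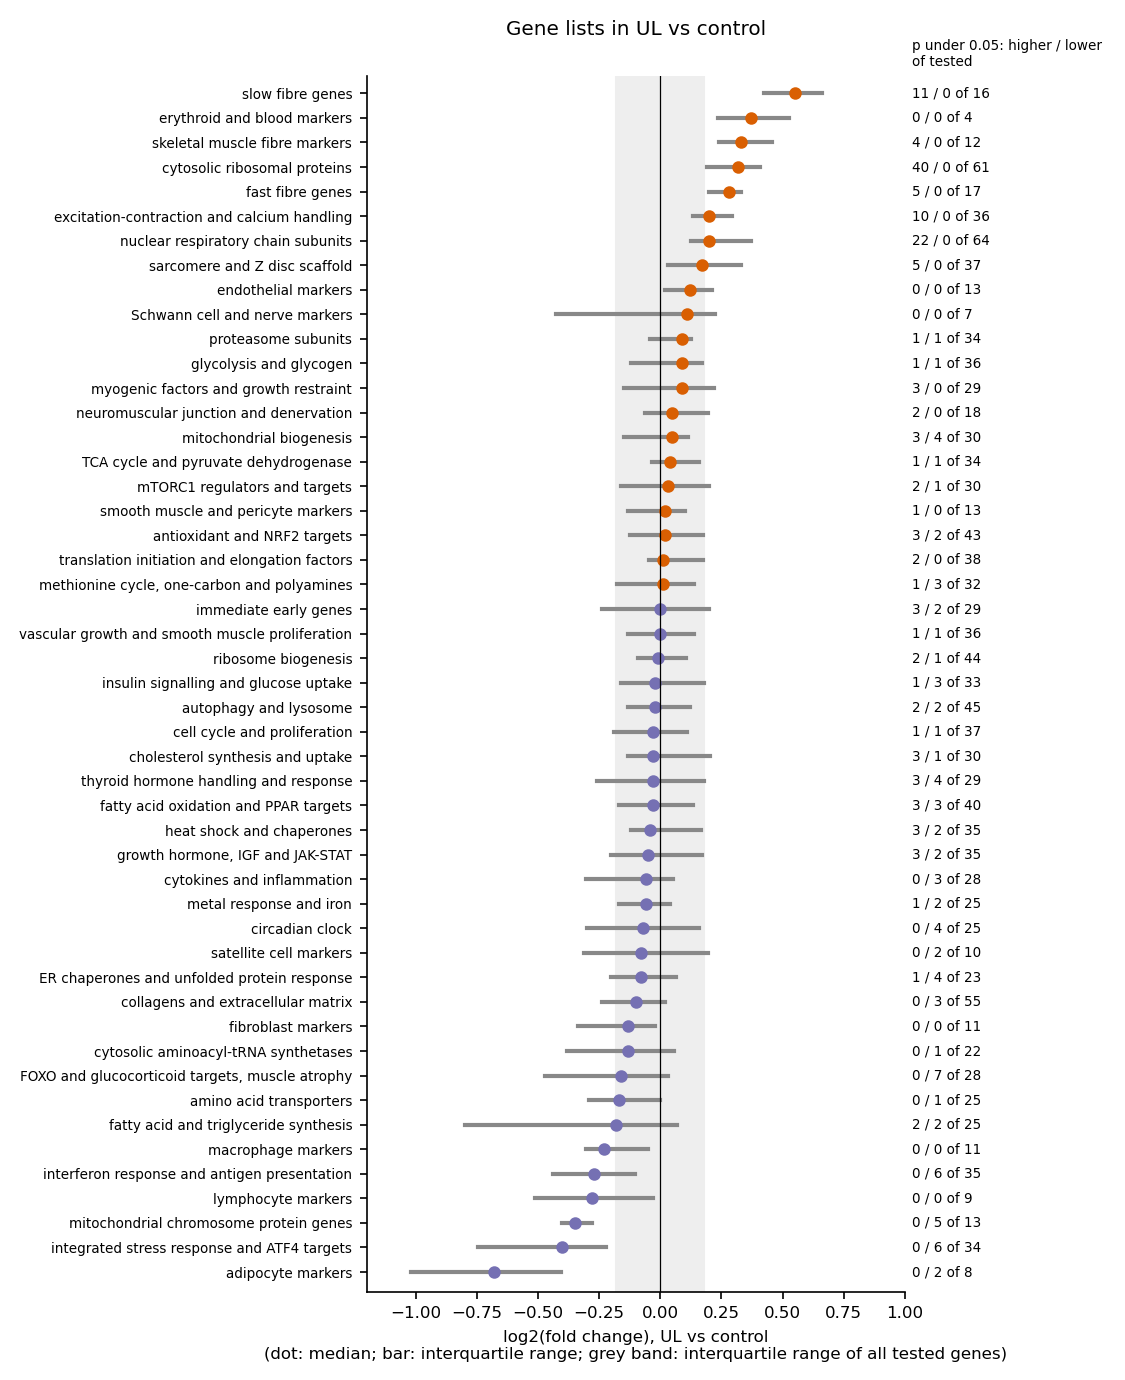
Dots are the median log2(fold change), UL vs control, of 49 gene lists, bars their interquartile range, and the grey band that of all 14203 tested genes. Numbers at the right count members higher and lower at an unadjusted p-value under 0.05, such as 40 and 0 of 61 for cytosolic ribosomal proteins and 0 and 6 of 34 for the integrated stress response.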

How the data were processed

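The counts used are those the authors deposited, per the file header and their methods: reads trimmed with fastp, aligned with HISAT2 to Sscrofa11.1 and counted per gene with featureCounts without strand, 1 column per piglet, neither pooled nor normalized. All 17 libraries were fitted in 1 model with edgeR 4.0.16 (R 4.3.3) after filterByExpr by diet and TMM scaling, and UL was tested against control with the quasi-likelihood F-test and Benjamini-Hochberg adjustment. The standard error was the absolute log2(fold change) over the square root of F. CPM used TMM library sizes. The code was tested on simulated counts. Of 31908 genes, 15029 were named by identifier, 4623 by position in the RefSeq annotation, 1 by the deposited table and 12255 had no name, and 14203 were tested.

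The 49 gene lists, 10 of them of cell type markers, and the members of the comparison were chosen with earlier results of these data known. Each list was described by its number of tested genes, of genes at an unadjusted p-value under 0.05 and by its median. Named genes were the 10 per direction with the smallest p-values, the 5 per direction with the largest fold changes among genes with a mean of at least 1 CPM and an unadjusted p-value under 0.05, up to 4 genes per list with the smallest p-values among those under 0.05, the most abundant member of each cell type list, genes the paper names for UL vs control, and the 10 most abundant genes. NDUFAF8 and CXXC5 were added after their values were seen. Library measures and distances were tested with exact permutations (924 groupings).

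Alternatives were the 12 libraries alone, RLE and upper quartile scaling, other filters, DESeq2 1.42.0 on 12 and on 17 libraries, limma 3.58.1 voom, and leaving out each library. A promoter motif analysis was not run. Depth of 16335304 to 23433672 reads put the floor of 3 reads at 0.133 to 0.195 CPM, which covers counting error only.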

Additional observations from a re-analysis of the deposited data

Results flagged for a closer look

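Libraries were searched for a sample far from the other 5 of its diet, in 160 groups of 6 values, and 20 groups held such a sample. For normally distributed values chance gives about 1 in 20 groups. Most groups here were of CPM or summed CPM, whose distribution was not tested, so that rate may not hold for them. A sample was far when its gap to the next value took up most of the range of the 6 (Dixon's ratio), and the groups were not independent, since list sums hold some of the named genes. Control replicate 25 had the most reads of its diet, 23433672 against 17773850 in the next library. It also had the highest CPM of NDUFB10 (177, next 117) and of PER1 (60.4, next 34.3), and the lowest COL3A1 (1613, next 3487), the lowest fibroblast marker sum (3288, next 6882) and the lowest collagen and matrix sum (5912, next 10726).

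Control replicate 24 was highest for IL33 (23.2, next 9.81), PPARG (13, next 4.84), FABP4 (311, next 103), ME1 (155, next 33.4) and the adipocyte marker sum (668, next 233). Control replicate 23 was highest for MAT2A (265, next 174), CRY2 (42.7, next 33.0) and DUSP1 (70.7, next 43.0). ARG2 was highest in Control replicate 26 (145, next 67.4), and ISG15 in Control replicate 21 (207, next 27.7).

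Among UL piglets, replicate 27 was far above the others of its diet in ISG15 (22.2, next 11.7) and in the interferon response sum (1509, next 1215). Replicate 29 had 2495 CPM of MYH6 against 1519 in the next piglet, and replicate 30 had 5.93 CPM of ENSSSCG00000042227 against 1.60. These samples stayed in the fits with all libraries, and each library was also left out in turn.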

How the results depend on the processing

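The number of genes past the adjusted threshold was 0 with edgeR in the main fit, under both other scalings, both other filters and the 12 libraries alone, and 0 with limma voom, but 148 with DESeq2 on 12 libraries and 153 on 17, with 10 and 12 DEGs. The cause was not tested. With each library left out it ran from 0 to 16 genes and from 0 to 2 DEGs, the highest without Control replicate 25. With every gene that had a read, 1074 genes were lower at an unadjusted p-value under 0.05, since more genes were tested. The share above 0 was 51.2% with upper quartile scaling and 48.6 to 50.8% with each library left out, both sides of an even split.

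With each library left out, genes whose diets did not overlap numbered 149 to 292, since fewer piglets overlap less often. The diet share of variance was 10.8 to 13.9% and the mitochondrial share differed by -3.77 to -2.55 percentage points. Log2(fold change) reversed for PECAM1 (-0.12 without UL replicate 32, range -0.12 to 0.24), MYL1 (-0.01 without Control replicate 26 and -0.03 without UL replicate 28, range to 0.15) and the mitochondrial ribosomal RNA KEF22_r01 (-0.01 without UL replicate 28 and -0.10 without UL replicate 32, range to 0.22). The causes were not tested. The other named genes kept their sign. Leaving out Control replicate 24, Control replicate 25 or UL replicate 27 brought 10 named genes under the adjusted threshold, which the report names. At low levels, 3 reads were 0.133 to 0.195 CPM, and the promoter motif analysis was not run.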
